A study of Mus musculus with 4 samples.

Results

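The S100 proteins are a family of small calcium-binding proteins, and 10 of their genes (S100a1, S100a3, S100a4, S100a5, S100a6, S100a8, S100a9, S100a10, S100a11 and S100a13) were described here in BALF cells, the cells in fluid rinsed from the lung's airspaces (bronchoalveolar lavage fluid). Their probes were found by the accession that the array design gives for each non-control probe, which was matched to a gene symbol in a RefSeq table. All 10 genes had a probe, 12 probes in all, out of 20832 named genes and 39429 probes. All 12 probes were well above background on all 4 arrays and passed the filter on dim probes. The matching used gene names and no measured values, but the set itself was proposed with earlier results of these data known.

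S100 proteins carry a pair of EF-hand motifs, helix-loop-helix folds that hold calcium, and most work as dimers that bind a target protein once calcium has changed their shape. Inside cells they act on the cytoskeleton, membranes and annexins. Some of them leave the cell and act as danger signals on receptors such as Tlr4 and Ager (the receptor RAGE). S100a8 and S100a9 pair as calprotectin, which is abundant in neutrophils and monocytes, and S100a4, also called Fsp1, has been used as a marker of fibroblasts and of some macrophages in fibrotic lung.

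The study asked how gene expression in BALF cells differs between bleomycin–administered mice with and without S1pr2, a receptor for sphingosine-1-phosphate. Both groups received bleomycin, an agent that injures the lung and leads to fibrosis, by intraperitoneal injection at 0.035 U/g, 2 injections per week, and the sample records place the RNA at day 22. The S1pr2-/- mice carried a targeted disruption of the gene in the whole body on a mixed 129Ola;C57BL/6J background with a backcross to C57BL/6J, and their wild-type littermates were the controls, with injections starting at 8 to 10 weeks of age. Each genotype had 2 one-color arrays, and no array of saline-administered mice was analysed here. The methods call the RNA samples of a genotype independent but do not state how many mice gave the cells of each, so the p-values measure only the spread between these samples.

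The 4 arrays were alike in brightness, with a 75th percentile between 2489 and 2817 intensity units and between 67.6% and 72.2% of probes well above background, and all lay on 1 slide with 1 scan, so that no batch could be tested. The targeted gene did not follow the labels. The S1pr2 probe read 0.915 and 0.896 times the array's 75th percentile in wild-type BALF cells, but 6.35 and 5.83 times on the arrays labelled S1pr2-/-. The log2 difference was 2.75. Whether this probe lies in the disrupted part of the gene is not given in the sources used here. Whether the labels are exchanged was not tested, and every direction given here is as labelled. By quantitative PCR of BALF cells, the paper reports a weaker or absent rise of Alox15 after bleomycin in S1pr2-/- mice. Alox15, 1 of the eosinophil markers below, was also lower here as labelled, with a log2 difference of -4.83. The labels name the cells alveolar macrophages, and 13 of 13 marker genes of that cell type were well above background on all 4 arrays, but so were 8 of 8 T cell, 11 of 11 epithelial and 13 of 15 neutrophil markers with a probe.

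The members that differed most between the genotypes by size and by regularity were S100a9 and S100a1, and each has a close partner in the genome, so the sequences around their starts are shown first. All 10 genes lie on chromosome 3, in the order S100a1, S100a13, S100a3, S100a4, S100a5, S100a6, S100a8, S100a9, S100a11 and S100a10. With 3 further S100 genes (S100a14 and S100a16 between S100a13 and S100a3, and S100a7a between S100a6 and S100a8), they make up the 13 family genes of that chromosome. S100a8 and S100a9 are neighbours among them. The 250 bases before the start of these calprotectin genes, from the RefSeq tables of the assembly GRCm38.p6, are printed 5′ to 3′ on the strand of each gene, S100a8 from the plus strand of chr3:90668821-90669070 and S100a9 from the minus strand of chr3:90695722-90695971. Capitals mark matches to the motifs described after them.
S100a8: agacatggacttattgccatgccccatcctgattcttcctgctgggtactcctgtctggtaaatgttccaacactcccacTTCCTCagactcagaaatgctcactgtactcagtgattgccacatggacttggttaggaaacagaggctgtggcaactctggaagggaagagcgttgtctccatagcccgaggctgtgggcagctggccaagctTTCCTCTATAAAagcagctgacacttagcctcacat
S100a9: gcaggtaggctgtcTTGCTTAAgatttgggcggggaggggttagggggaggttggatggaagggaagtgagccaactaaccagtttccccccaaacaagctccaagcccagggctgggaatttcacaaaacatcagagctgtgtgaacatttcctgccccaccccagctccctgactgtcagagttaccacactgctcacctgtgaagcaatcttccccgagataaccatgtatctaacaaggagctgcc

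Motifs of 4 factors active in myeloid cells (C/EBP, PU.1, AP-1 and STAT6) and the TATA box were searched as letters on both strands, in 32851 RefSeq windows of the same length. The window of S100a9 held a C/EBP motif (TTGCNNAA) beginning 236 bases before the start, and 9.56% of all windows held one. The window of S100a8 held none, but held the PU.1 motif (GAGGAA) at 170 and 36 bases before the start, read there on the opposite strand, and the TATA box motif (TATAAA) at 30 bases, where it directly follows the nearer PU.1 match. A PU.1 motif was present in 23.3% of all windows and a TATA box motif in 12.4%. The S100a8 and S100a9 windows thus shared none of the letters searched. The 9 members with a promoter entry had 12 windows, 4 of them of S100a3, whose matches all lay in 1 window. Counted by gene, 3 held the PU.1 motif (S100a3, S100a8 and S100a11), 3 the TATA box motif (S100a3, S100a4 and S100a8), and 1 each the AP-1 motif TGANTCA (S100a11), the STAT6 motif (TTC and GAA around any 4 bases, S100a5) and the C/EBP motif. All windows held the AP-1 motif in 6.75% and the STAT6 motif in 5.85%. These matches describe the letters of the windows and do not show binding. S100a10 had no entry.

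S100a1 and S100a13 begin head to head on opposite strands, with 104 bases between their starts at chr3:90514331-90514434 of GRCm38.p6, so that a stretch before the start of one is also a stretch before the start of the other. It is printed on the plus strand, that of S100a13, and held 0 matches to the motifs searched.
S100a1 to S100a13: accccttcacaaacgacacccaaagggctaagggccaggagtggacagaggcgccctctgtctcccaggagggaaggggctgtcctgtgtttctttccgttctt

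Across the family, the arrays labelled S1pr2-/- showed no shift in one direction. The log2 difference, S1pr2-/- minus wild-type, was below 0 for 4 genes and above 0 for 6, and 50.6% of all 27161 tested probes were below 0. In this count a gene with 2 probes is given by its brighter probe. The median difference of the 10 genes was 0.033, beside -0.0030 over all tested probes. The arrays of the 2 genotypes did not overlap for S100a9 and S100a5, which lay lower, and for S100a1, which lay higher, and they overlapped for the other 7. Over all tested probes 21.8% were lower and 20.0% higher without overlap, and 41.7% in either direction, so that 3 of 10 members is no excess over the background. S100a9 was the only member past a 2-fold difference, and 1.24% of all tested probes were lower and 0.180% higher by more than 2-fold. Because these are bulk samples, fewer cells of a type and less RNA per cell cannot be told apart in any of these values.

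**Figure D1:**
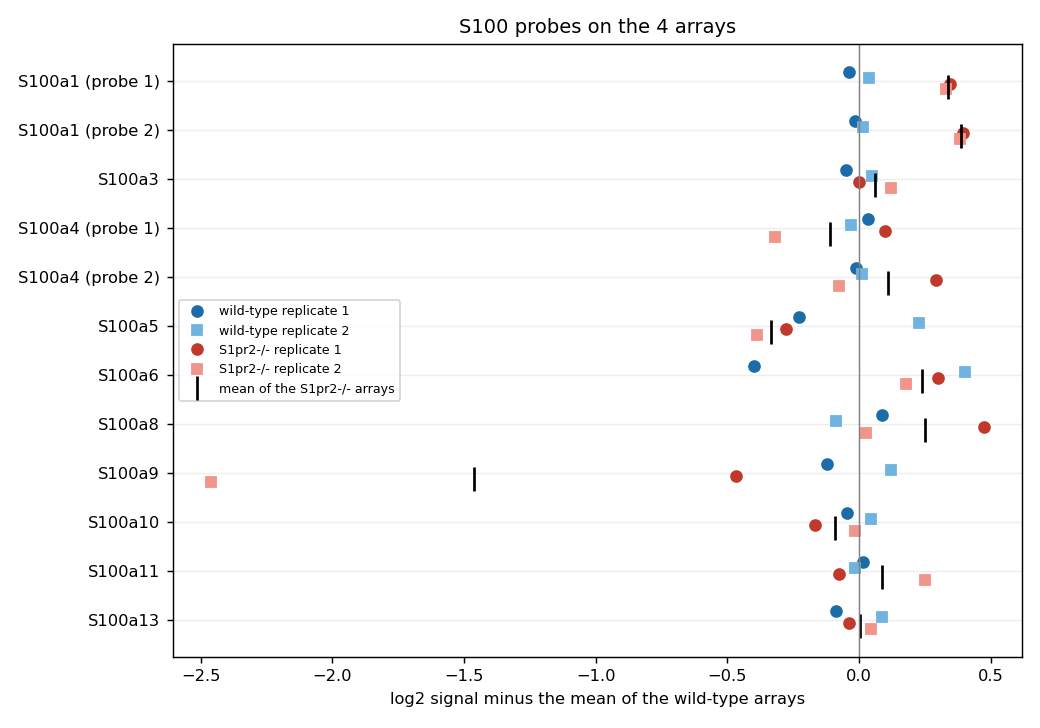
Each point is 1 probe on 1 array, as log2 signal minus the mean of the wild-type arrays (x axis), for the 12 S100 probes (y axis), with circles for replicate 1, squares for replicate 2 and a black bar at the mean of the S1pr2-/- arrays. The S1pr2-/- points of S100a1 lie together to the right of wild-type on both probes, and those of S100a9 lie to the left, 1.99 apart.

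No member passed limma at an adjusted p under 0.05, and neither did any of the 27161 probes (0% lower and 0% higher). At an unadjusted p under 0.05 limma gave 2601 probes (9.58%, 5.59% lower and 3.99% higher), among them S100a1 alone of the 10 genes. The methods' t-test gave 2061 probes unadjusted and 0 after adjustment. The lowest adjusted p in the family was 0.509 (limma), for both probes of S100a1. All differences below are therefore given as values, not as changes, and the main difference of each member has its error beside it.

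**Figure D2:**
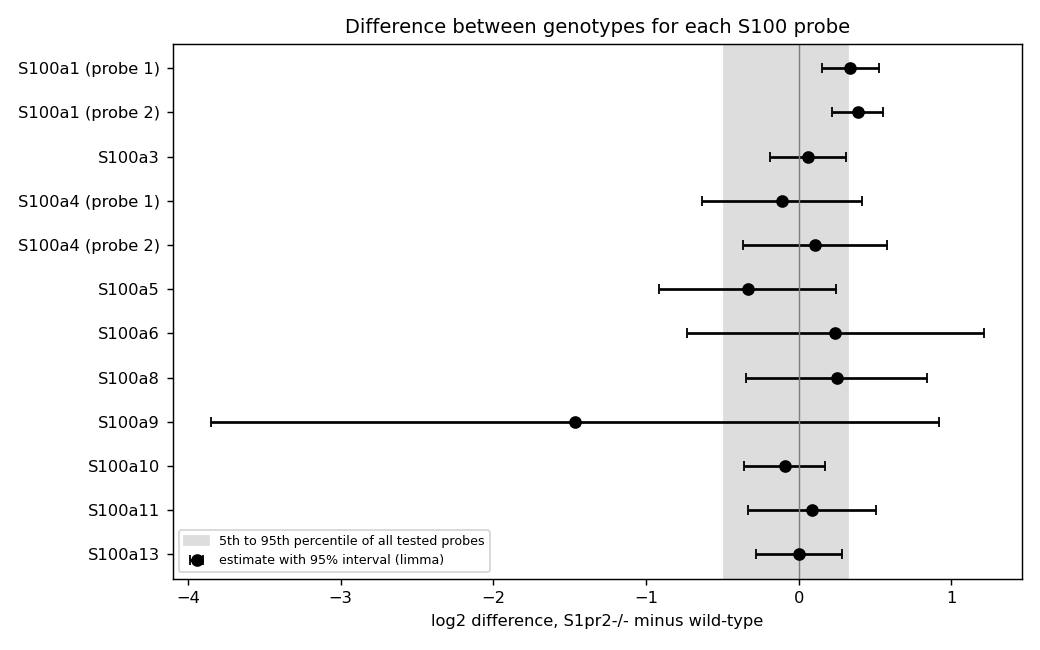
The log2 difference of each S100 probe (S1pr2-/- minus wild-type, x axis) with its 95% interval from limma, beside the 5th to 95th percentile of all tested probes (grey band, -0.49 to 0.32). The interval of S100a9 is the widest, from -3.85 to 0.92, and those of the S100a1 probes alone leave out 0.

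Of the calprotectin pair, S100a9 differed most and S100a8 did not go with it. Neither gene had another probe, so their values could not be compared between probes. S100a9 read 11.3 and 13.4 times the array's 75th percentile in wild-type BALF cells, and 8.90 and 2.24 times on the arrays labelled S1pr2-/-. Both S1pr2-/- arrays lay below both wild-type arrays, the first narrowly and the second far below. On the log2 scale the means were 3.62 ± 0.17 (SD, n = 2) and 2.16 ± 1.41 (SD, n = 2), a difference of -1.46 (SE 0.786, 95% interval -3.85 to 0.92, limma adjusted p = 0.605), or 2.76-fold lower. The S1pr2-/- arrays stood 1.99 apart on the log2 scale, and 0.0847% of tested probes had a wider range between these arrays, while 0.626% had a larger difference between genotypes. The size of the S100a9 difference rested on S1pr2-/- replicate 2. Without it the gene was 1.38-fold lower (log2 difference -0.47), and without S1pr2-/- replicate 1 it was 5.50-fold lower (-2.46).

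S100a8, the partner, read 15.0 and 13.3 times the 75th percentile in wild-type BALF cells, and 19.6 and 14.4 times on the arrays labelled S1pr2-/-. One S1pr2-/- array was the highest of the 4 and the other lay between the wild-type arrays, so the groups overlapped. The log2 difference was 0.25 (SE 0.195, 95% interval -0.34 to 0.84, limma adjusted p = 0.694), and it ran from 0.03 without S1pr2-/- replicate 1 to 0.47 without S1pr2-/- replicate 2. Relative to S100a8 and to the wild-type mean, S100a9 stood at -0.21 and 0.21 on the wild-type arrays but at -0.94 and -2.49 on the arrays labelled S1pr2-/- (log2). The partners thus parted on both S1pr2-/- arrays, more on the second. The difference between the log2 differences of the partners was -1.71, with an exact two-sided permutation p of 0.333, the smallest that 2 arrays against 2 can give. This pair, like the pair of S100a1 and S100a13 below, was chosen for its values after they were seen, so it is a description.

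The genes whose profile over the 4 arrays was nearest to that of S100a9, by the distance between mean-centred log2 values among 14793 candidate genes, were Cstdc4 (distance 0.033), Ccr4 (0.547), Mefv (0.574), Ccl8 (0.601) and Mmp9 (0.620). Ccr4 and Ccl8 are a chemokine receptor and a chemokine, Mefv encodes pyrin, an inflammasome protein of myeloid cells, and Mmp9 is a gelatinase stored in neutrophils. The genotypes overlapped for Ccl8. Mmp9 was dim, with 0.0403 and 0.0588 times the 75th percentile in wild-type BALF cells. It lay at the floor of 0.01 on S1pr2-/- replicate 2. Cstdc4, a cystatin-domain gene, read 0.0641 and 0.0747 times the 75th percentile in wild-type BALF cells, and 0.0489 and 0.0125 times on the arrays labelled S1pr2-/-. It had the same shape as S100a9, with 1 S1pr2-/- array just below wild-type and the other far below. Likeness over 4 arrays rests on few points and was not tested.

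**Figure D3:**
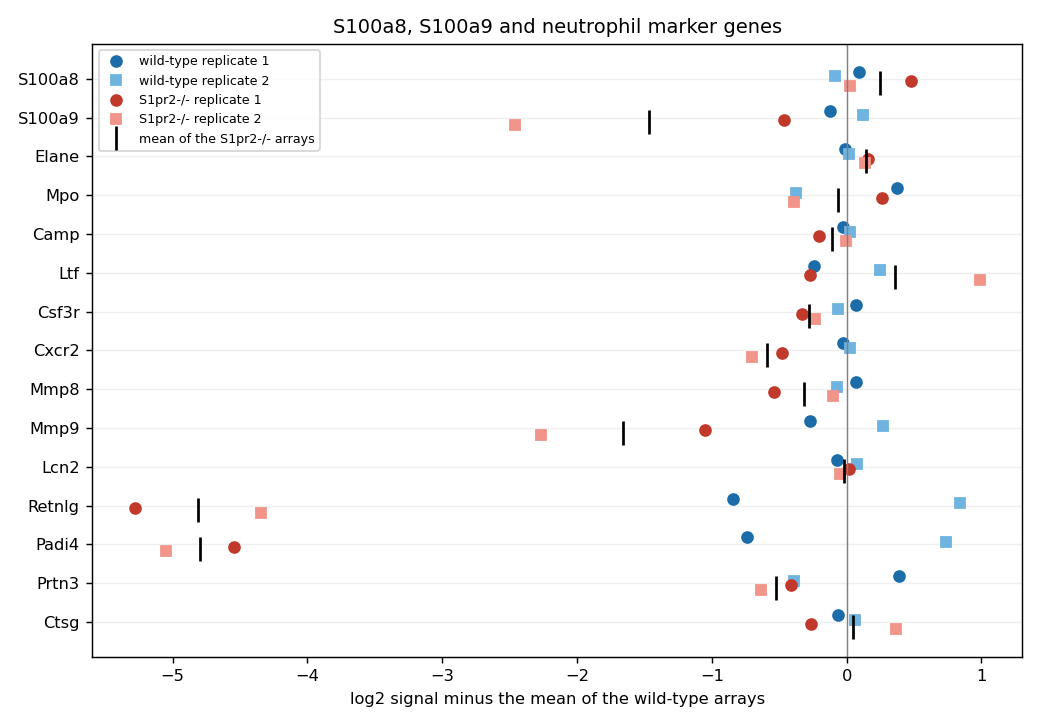
Log2 signal minus the mean of the wild-type arrays (x axis) for S100a8, S100a9 and the 13 tested neutrophil markers (y axis), with 1 point per array and a black bar at the mean of the S1pr2-/- arrays. Retnlg and Padi4 lie near -4.8, S100a9 at -1.46, and S100a8 at 0.25.

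Markers of the cells known for calprotectin mostly read lower on the arrays labelled S1pr2-/- too. Of the 13 neutrophil markers tested, 7 were lower without overlap and 1 was higher, with a median log2 difference of -0.28. Over all tested probes 21.8% were lower and 20.0% higher without overlap, which is the background for the other lists below as well. The summed level of the list was 65.7 and 76.7 times the 75th percentile in wild-type BALF cells, against 47.5 and 52.9 in those labelled S1pr2-/-. Csf3r, the receptor for G-CSF, made up most of this sum, with 48.5 and 44.2 in wild-type BALF cells and 36.9 and 39.4 in those labelled S1pr2-/-. Ngp and Fcnb, stored in neutrophil granules, were not well above background and Ly6g had no probe named here. Retnlg, a resistin-like gene of neutrophils, was lower by 4.81 on the log2 scale (limma adjusted p = 0.509). Padi4, the enzyme that citrullinates histones in neutrophils, was lower by 4.80 on its brighter probe (limma adjusted p = 0.509). For each, both S1pr2-/- arrays lay far below wild-type, but the wild-type arrays differed widely. These read 6.29 and 20.2 times the 75th percentile for Retnlg, and 0.315 and 0.875 for Padi4, beside 11.3 and 13.4 for S100a9. The dimmer probe of Padi4 was lower by a smaller amount, with a log2 difference of -1.81. The granule genes Lcn2 and Elane differed by -0.02 and 0.15. Ltf differed by 0.36, Mpo by -0.07, Camp by -0.11 and Ctsg by 0.05, all with overlap. Of 10 monocyte markers, 7 were lower without overlap and 1 was higher (median -0.14), and of 9 eosinophil markers, 8 were lower without overlap (median -4.47). The part of these cells in the S100a9 difference was not tested.

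S100a1, best known from muscle, where it acts on calcium release channels, was the most regular member. Its brighter probe read 12.4 and 13.1 times the 75th percentile in wild-type BALF cells, and 16.2 and 16.03 times on the arrays labelled S1pr2-/-. Its other probe read 7.38 and 7.54 in wild-type BALF cells and 9.80 and 9.72 on the arrays labelled S1pr2-/-. On both probes the S1pr2-/- arrays lay above wild-type and close to each other. The log2 difference was 0.34 (SE 0.062, 95% interval 0.15 to 0.53, limma adjusted p = 0.509) by the brighter probe and 0.39 (SE 0.055, 95% interval 0.22 to 0.56, adjusted p = 0.509) by the other, 1.26-fold and 1.31-fold higher. These probes measure the same RNA and count as 1 gene. The difference stayed between 0.30 and 0.38 with each array left out, yet 13.2% of all tested probes had a larger difference than the brighter probe.

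S100a13, which starts 104 bases away and takes part in the release of Fgf1 and Il1a from cells, read 12.4 and 14.002 times the 75th percentile in wild-type BALF cells, and 12.8 and 13.6 times on the arrays labelled S1pr2-/-. The S1pr2-/- arrays lay inside the range of the wild-type arrays. The log2 difference was 0.0037 (SE 0.092, 95% interval -0.28 to 0.28, limma adjusted p = 1). Relative to S100a13 and to the wild-type mean, S100a1 stood at 0.05 and -0.05 on the wild-type arrays but at 0.39 and 0.29 on those labelled S1pr2-/-, so that the genes on either side of the printed stretch parted by 0.34 (exact two-sided permutation p = 0.333, the smallest possible).

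**Figure D4:**
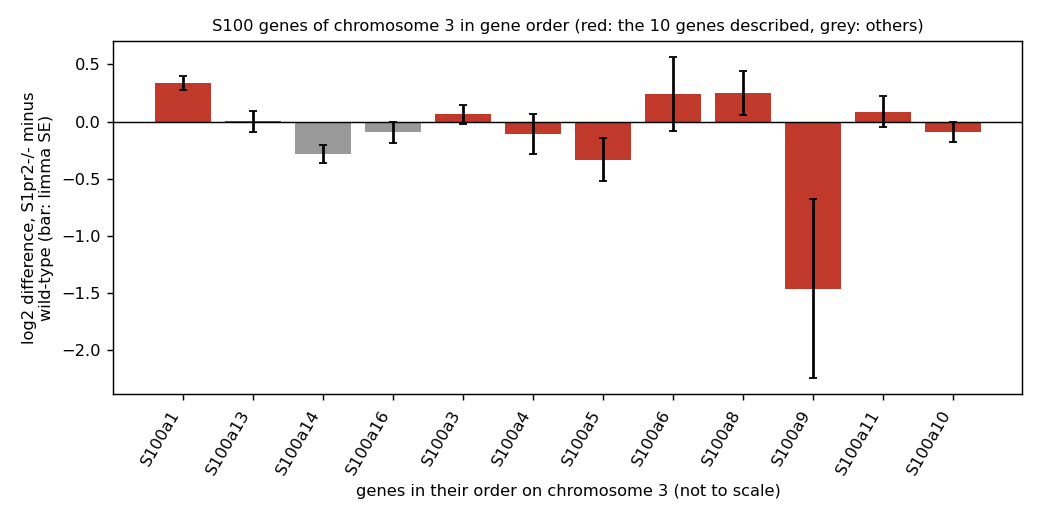
The log2 difference (S1pr2-/- minus wild-type, bars, with the limma SE as lines) of the tested S100 genes of chromosome 3 in their gene order (x axis, not to scale), red for the 10 genes described and grey for S100a14 and S100a16. The neighbours S100a8 and S100a9 stand at 0.25 and -1.46, and S100a1 and S100a13 at 0.34 and 0.0037.

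S100a4, which binds non-muscle myosin and is tied to cell movement, had 2 probes that did not point the same way. The brighter probe read 35.5 and 33.9 times the 75th percentile in wild-type BALF cells, and 37.2 and 27.8 times on the arrays labelled S1pr2-/-. The other read 17.0 and 17.3, and 21.0 and 16.2. On each probe the S1pr2-/- replicate 1 was the highest array and replicate 2 the lowest, so the wild-type values lay between them. The log2 differences were -0.11 (SE 0.174, limma adjusted p = 0.836) and 0.11 (SE 0.155, limma adjusted p = 0.816), and without S1pr2-/- replicate 2 the brighter probe stood at 0.10. Of the fibroblast markers, 6 of 9 were well above background on all 4 arrays, 4 of these were higher without overlap on the arrays labelled S1pr2-/-, and the summed level was 9.71 and 10.8 in wild-type BALF cells and 10.3 and 6.72 on the arrays labelled S1pr2-/-. Thy1, which T cells also express, made up most of this sum, with 9.45 and 10.5 in wild-type BALF cells and 9.60 and 6.37 in those labelled S1pr2-/-, while the 4 higher markers were dim (Col1a1, Col1a2, Col3a1 and Dcn, the last with a log2 difference of 1.41). The part of fibroblasts in the S100a4 values was not tested.

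S100a6 (calcyclin), a partner of annexins and of Cacybp, was the member whose wild-type arrays differed most. It read 16.7 and 29.1 times the 75th percentile in wild-type BALF cells, and 27.2 and 25.0 times on the arrays labelled S1pr2-/-. Wild-type replicate 1 stood apart below the other 3 arrays, and wild-type replicate 2 was the highest. The wild-type range was 0.80 on the log2 scale, and 3.6% of tested probes had a wider one. The difference between genotypes was 0.24 (SE 0.321, 95% interval -0.73 to 1.21, limma adjusted p = 0.802). It turned to -0.16 without wild-type replicate 1 and was 0.64 without wild-type replicate 2, so no direction can be given.

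S100a10 (p11) and S100a11 (calgizzarin) are the members that bind annexins most closely, S100a10 with Anxa2 at the cell membrane and S100a11 with Anxa1. S100a10 read 27.1 and 28.8 times the 75th percentile in wild-type BALF cells, and 24.9 and 27.7 times on the arrays labelled S1pr2-/-. One S1pr2-/- array was the lowest and the other lay between the wild-type arrays. The log2 difference was -0.09 (SE 0.088, 95% interval -0.36 to 0.17, limma adjusted p = 0.734). S100a11 read 26.9 and 26.3 in wild-type BALF cells, and 25.2 and 31.6 on the arrays labelled S1pr2-/-, 1 below and 1 above wild-type. Its log2 difference was 0.09 (SE 0.138, 95% interval -0.33 to 0.51, limma adjusted p = 0.835), and it turned to -0.07 without S1pr2-/- replicate 2.

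S100a3, known from hair, and S100a5, known from olfactory neurons, gave dim signals that were still well above background on all 4 arrays. S100a5 read 0.0730 and 0.100 times the 75th percentile in wild-type BALF cells, and 0.0706 and 0.0653 times on the arrays labelled S1pr2-/-. Both S1pr2-/- arrays were below wild-type, but the first only just. The log2 difference was -0.33 (SE 0.191, 95% interval -0.91 to 0.25, limma adjusted p = 0.622), ran from -0.56 to -0.10 with arrays left out, and was 0.28 after normexp background correction. S100a3 read 0.0565 and 0.0605 in wild-type BALF cells, and 0.0585 and 0.0636 on the arrays labelled S1pr2-/-, with overlap. Its log2 difference was 0.06 (SE 0.081, 95% interval -0.19 to 0.31, limma adjusted p = 0.800), and 0.60 after normexp background correction.

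As a set, the 10 genes were about as repeatable between arrays of a genotype as tested probes of any brightness. The median range between the arrays was 0.14 for wild-type and 0.14 for the arrays labelled S1pr2-/-, beside 0.12 and 0.12 over all tested probes. Among the 5067 probes with a mean log2 above 2, few had a wider S1pr2-/- range than some bright members. The share was 0.0197% for S100a9, 2.53% for S100a8, 3.04% for S100a4 and 5.68% for S100a11. It was 22.4% for S100a10, 31.7% for S100a6, 45.6% for S100a13 and 89% for S100a1. The median size of the difference between genotypes was 0.17, beside 0.12 over all tested probes. Signals of different probes depend on their sequence, so no order of abundance among the genes is given.

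Among receptors and signaling proteins that S100 proteins act through, 10 of 10 genes were tested, 3 were lower and 3 higher without overlap, and the median log2 difference was 0.05. Ager, the receptor RAGE, was lowest and read 0.0725 and 0.0686 times the 75th percentile in wild-type BALF cells, against 0.0580 and 0.0529 on the arrays labelled S1pr2-/-. Both S1pr2-/- arrays were below wild-type, with a log2 difference of -0.35 (SE 0.081, limma adjusted p = 0.509). Tlr4, the receptor through which calprotectin acts on innate immune cells, differed by -0.14 and its co-receptor Cd14 by 0.17. Bsg (CD147), another receptor for S100a9, differed by 0.26, and Ly96, the partner of Tlr4 on the cell surface, by 0.20 with overlap.

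Among binding partners, 12 of 14 genes were tested, 4 were lower and 0 higher without overlap, and the median log2 difference was 0.0074. Cacna1c was well above background on 0 arrays and Plg on 1, so neither was tested. Anxa2, the partner of S100a10, read 134.8 and 139.0 times the 75th percentile in wild-type BALF cells, against 119.7 and 127.9 times on the arrays labelled S1pr2-/-. Both of these were lower than wild-type, with a log2 difference of -0.15 (SE 0.067, limma adjusted p = 0.574). Anxa1 differed by -0.18 on its brighter probe and by -0.03, with overlap, on its other probe. Cacybp, which links S100a6 to protein degradation, differed by -0.12, and Il1a by -0.13. Fgf1, released together with S100a13, differed by 0.40 (SE 0.346) with overlap on its brighter probe. Its other probe was higher without overlap on the arrays labelled S1pr2-/-, but lay at or just above the floor of 0.01 on the wild-type arrays, so the size of that difference is not given.

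**Figure D5:**
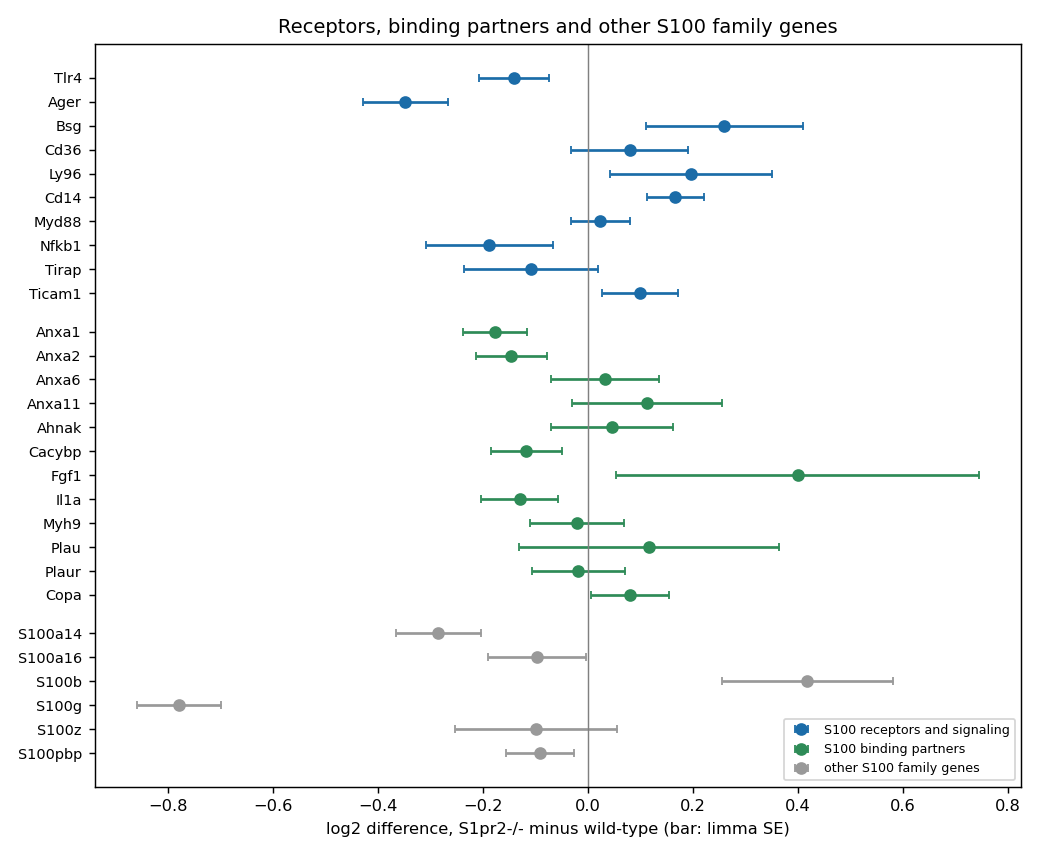
The log2 difference (S1pr2-/- minus wild-type, x axis) with the limma SE for the tested receptors and signaling genes (blue), binding partners (green) and other S100 family genes with S100pbp (grey), 1 probe per gene. S100g at -0.78 lies farthest from 0 and Fgf1 has the widest error.

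A list of other S100 family genes also held S100pbp, which encodes a protein that binds an S100 protein and is not one itself. Of its 7 genes 6 were tested, 3 were lower (S100g, S100a14 and S100pbp) and 1 higher (S100b) without overlap, and the median log2 difference was -0.10. S100g (calbindin-D9k), an S100 protein that buffers calcium in epithelia, read 0.255 and 0.281 times the 75th percentile in wild-type BALF cells, and 0.153 and 0.160 on the arrays labelled S1pr2-/-. Both S1pr2-/- arrays lay well below both wild-type arrays, and its log2 difference was -0.78 (SE 0.081, limma adjusted p = 0.509), with -0.75 on its other probe. S100a14, an epithelial family member, differed by -0.28 without overlap, and S100b, known from glia, by 0.42. Of 11 epithelial markers, 6 were lower without overlap and 0 higher, with a median of -0.33, and their summed level was 56.2 and 68.0 times the 75th percentile in wild-type BALF cells, against 48.1 and 80.3 in those labelled S1pr2-/-, carried mainly by Krt19, Scgb1a1 and Scgb3a1, for which the genotypes overlapped. The part of epithelial cells in the S100g and S100a14 values was not tested.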

How the data were processed

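Arrays were 4 one-color arrays of BALF cell RNA, 200 ng labelled with Cy3 for each. The authors deposited the scanner output with spot intensity, background-corrected by Feature Extraction in the processed signal (version 10.7.3.1 in the submitters' processing notes, 11.0.1.1 in the file headers). A table of log2 values normalized by the authors was deposited too. Its columns had medians of 0.0227 and -0.0227 for wild-type and -0.0579 and -0.0344 for S1pr2-/-. On all 4 arrays, 99.6% of 39429 probes were within 0.01 of the log2 signal over the 75th percentile minus the wild-type mean, once a constant per array (-0.0123 to 0.00981) was taken off, which settled scale, centring and direction. It was used as an alternative.

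Each processed intensity was scaled to the 75th percentile of non-control spots on its array, floored at 0.01 (a minimum that the methods list before the scaling) and log2-transformed. Outlier-flagged spots were left out (115 to 273 per array), and no spot was saturated (0 on each array). Spots of a probe were averaged, and a probe counted as well above background on an array if this held for a share of its spots of at least 0.5. Probes without a missing value that passed this on both arrays of 1 or both genotypes (27161) were tested with limma 3.58.1 in R 4.3.3 (lmFit, eBayes, Benjamini-Hochberg over all of them). A gene with several probes is given by the one with the highest mean signal, with the other probes of the genes the results turn on beside it. Accessions named 69.6% of probes (98.3% of those with an NM accession) through a RefSeq table of GRCm38.p6. The array design uses mm9, so probe coordinates are not given. Promoters were read from RefSeq with Python 3.11.15.

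The text names the 10 members, S1pr2, the genes of 4 lists (other S100 family genes, receptors and signaling, binding partners, other calcium-binding genes), markers of 9 cell types and the 5 genes nearest in profile to the member with the largest difference. In the list of other calcium-binding genes, values of 1 gene are not reported here. Members and lists were chosen with earlier results of these data known. A list is described by its counts and median, and no set test was run. Permutation tests of 2 arrays against 2 cannot give less than 0.333. The fit was tested on simulated data. As alternatives, normalization by quantiles or cyclic loess, a percentile over detected probes only, normexp (offset 50, on the median signal, since the files hold no mean signal), the authors' table, the values without floor or without filter, a filter for detection on every array, flagged spots kept, the methods' t-test, a trended variance, the replicate block, the mean over probes of a gene and leaving out each array were tried.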

Additional observations from a re-analysis of the deposited data

How the results depend on the processing

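Over 13 alternatives other than leaving out an array, the difference of S100a9 ran from -1.54 to -1.45 (adjusted p 0.559 to 0.940) and that of S100a1 from 0.24 to 0.36 (adjusted p 0.324 to 0.743), and no alternative gave a probe of any gene an adjusted p under 0.05 (0 lower, 0 higher). Quantile normalization left 1 member lower and 2 higher without overlap. With normexp, 0 members had an unadjusted p under 0.05, S100a5 turned to 0.28 and S100a13 to -0.0885. With each array left out, between 2 and 5 members were lower and between 2 and 4 higher without overlap (2 and 1 with all arrays). Over all tested probes these shares were 33.1% to 39.2% lower and 30.8% to 37.5% higher, above those of 2 arrays against 2, since 1 array overlaps a pair less often. With each array left out, between 1 and 3 members had an unadjusted p under 0.05. The lone array of a genotype was then assumed to vary like the others. The share of all tested probes under this unadjusted p is not given for these settings. Whether these counts of members exceed the background can therefore not be told, and nothing is concluded from them. The differences that turned in sign ran from -0.16 (without wild-type replicate 1) to 0.64 for S100a6, from -0.32 to 0.10 (without S1pr2-/- replicate 2) for S100a4, from -0.0748 (without S1pr2-/- replicate 2) to 0.25 for S100a11, and from -0.0827 (without wild-type replicate 1) to 0.0902 for S100a13, which was at -0.0392 without S1pr2-/- replicate 2. The median of the members stayed between -0.08 and 0.08. Apart from the number, the titles give no pairing of same-numbered arrays of the genotypes. Across the tested probes, the deviations of same-numbered arrays from their group means correlated at 0.187. With the replicate block, the counts of members stayed at 2 lower, 1 higher and 1 with an unadjusted p under 0.05, the median at 0.033 and the calls over all probes at 0. With 2 arrays per genotype, the number of arrays limits the precision.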

Other observations

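A list of 12 other calcium-binding genes held mostly EF-hand proteins, and Calr (calreticulin), which has no EF-hand. Of the 12 genes tested, 1 was lower and 5 were higher without overlap on the arrays labelled S1pr2-/-, with a median log2 difference of 0.08 and a highest value of 0.27 (Gca, grancalcin). Gca, an EF-hand protein abundant in neutrophils, read 0.478 and 0.501 times the 75th percentile in wild-type BALF cells, and 0.630 and 0.553 on the arrays labelled S1pr2-/-, with both S1pr2-/- arrays above wild-type (limma adjusted p = 0.531). Aif1 (Iba1), a macrophage EF-hand protein, differed by 0.27 with overlap, and Lcp1, the actin-bundling L-plastin, by 0.13 with overlap on its brighter probe and by -0.14 without overlap on the other.

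Markers of lymphocytes and dendritic cells were read as well. Of 8 T cell markers, 5 were lower without overlap and 0 higher (median -0.43). Of 6 B cell markers, 0 were lower and 0 higher without overlap (median -0.69). Of 8 dendritic cell markers, 3 were lower and 1 higher (median -0.04). Of the 13 alveolar macrophage markers, 1 was lower and 4 were higher (median -0.01).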
